A study of Mus musculus with 24 samples.

Results

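The genes described here are the nuclear-encoded subunits of the mitochondrial respiratory chain and ATP synthase, as measured in mouse embryonic fibroblasts. They were chosen by symbol alone: every row of the count table whose symbol began with Nduf, Uqcr, Cox4 to Cox8 or Atp5, or was Sdha, Sdhb, Sdhc or Sdhd, with Cox6a2, Cox7a1 and Cox8b left out because they mark heart muscle. The rule found 93 of the 47480 rows. Of these, 36 were complex I subunits, 7 were complex I assembly factors with Ndufaf symbols, 4 belonged to complex II, 8 to complex III, 16 to complex IV and 15 to complex V. A further 3 (Ndufa4l2, Atp5s and Atp5sl) were kept apart and counted in no complex, and 4 rows were marked as pseudogenes. GENCODE names Atp5sl Dmac2, so its symbol here does not place it in ATP synthase. Ndufa4 was placed with complex IV.

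The respiratory chain passes electrons from NADH (complex I) and succinate (complex II) through ubiquinone to complex III, and from there through cytochrome c to complex IV, which reduces oxygen. The proton gradient built by complexes I, III and IV drives ATP synthase, complex V. Most subunits are encoded in the nucleus, translated in the cytosol and imported, and they are assembled with a small set of subunits encoded by mitochondrial DNA. The mitochondrially encoded subunits were not analysed here.

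The fibroblasts were labelled wild type in every group, and polyadenylated RNA was sequenced with a stranded kit. The labels cross 3 factors: a small interfering RNA (siCTRL, taken as the control, or siCop1, taken as directed against Cop1), the solvent DMSO or the compound KL001, and the absence or presence of an agent written as Dexa. Cop1 is a ubiquitin ligase component that binds substrates. KL001 is a compound known to stabilise cryptochromes, which repress transcription in the circadian clock. The 8 groups were siCTRL with DMSO, siCTRL with KL001, siCop1 with DMSO and siCop1 with KL001, each without and with Dexa and each with 3 libraries. Every cell population therefore received a small interfering RNA and either DMSO or KL001. The labels give no doses or times, nor the embryos or line from which the cells came. The labels do not say that replicates were separate cultures, so the p-values measure the spread between these libraries only.

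The libraries held 21409988 to 27875023 counts each (median 25337292). Rfwd2, the older symbol of Cop1, stood between 4.33 and 5.79 CPM in the 12 siCop1 libraries and between 25 and 29.7 CPM in the 12 siCTRL libraries (CPM, counts scaled to the adjusted library size). Fkbp5, a gene known to respond to glucocorticoids, was higher with Dexa by 3.96 on the log2 scale. All 8 fibroblast markers were measured, with a summed level of 40935 to 58277 CPM, and of these Lum was low at 0.23 to 1.67 CPM. In each averaged comparison 6 of the 8 fell, with median log2 differences of -0.09 with Dexa, -0.13 with siCop1 and -0.13 with KL001, and their part in the results was not tested. Heart muscle markers differed between libraries of the same group. Their sum was 7.72 to 11.5 CPM in the siCop1 libraries and 13.4 to 133 CPM in the siCTRL libraries, and 6 siCTRL libraries had at least 1 CPM of Myh6, the cardiac myosin heavy chain. These were all 3 of siCTRL with DMSO and no Dexa, and replicate 2 of each other siCTRL group. The averaged counts are therefore given with and without them. Without them no library of siCTRL with DMSO and no Dexa remains, so each factor is then averaged over 3 settings, and the comparisons that need that group are given only with them.

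Of the 93 genes, 85 passed the filter on low counts. The 8 that did not were the pseudogenes Atp5k-ps2, Atp5l-ps1, Atp5l-ps2 and Atp5l2-ps and the tissue-restricted paralogs Cox4i2, Cox6b2, Cox7b2 and Cox8c. Because short and long transcripts collect reads differently, levels were compared between genes as CPM per kilobase of transcript. The length was that of a single transcript per gene, so the order of genes depends on the transcript used. On that scale complex IV and complex V stood highest, with medians of 164 and 134 CPM per kilobase, followed by complex III at 89.1, complex II at 82.3 and complex I at 60.5. The complex I assembly factors stood lowest, with a median of 12.9 and a range from 5.78 for Ndufaf4 to 20.8 for Ndufaf2. Ndufaf4 was divided by a transcript of 3632 bases and Ndufaf2 by one of 678 bases. The highest value belonged to Atp5b, the catalytic beta subunit of ATP synthase, at 709 CPM per kilobase.

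In the pairs of a ubiquitous and a tissue-restricted paralog, the ubiquitous gene had by far the higher level. Cox4i1 stood at 407 CPM per kilobase against 0.110 for Cox4i2, the lung form of the same complex IV subunit. Cox6b1 stood at 183 against 0.187 for Cox6b2, and Cox7b at 91.7 against 0.0484 for Cox7b2. Cox8a stood at 175 CPM per kilobase, whereas Cox8c had 0 counts in every library, which allows up to 3 counts in a library (counting error only). Ndufa4 stood at 310 and Ndufa4l2, a paralog best known as a hypoxia-induced gene, at 0.451. Among the 3 genes for the membrane ring subunit c of ATP synthase, which encode the same mature protein, Atp5g3 was highest at 307, with Atp5g2 at 2.79 and Atp5g1 at 1.29. The transcripts used had 723 bases for Atp5g3, 731 for Atp5g2 and 4715 for Atp5g1. In CPM, not divided by length, Atp5g1 stood above Atp5g2, at 6.07 against 2.04. Cox7a2 and Cox7a2l, the latter known for its part in joining complexes III and IV, stood at 152 and 66.4.

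Low values of some of these genes coincided with copies of their sequence elsewhere in the genome. Processed pseudogenes of respiratory chain genes are common, and a short read that matches a gene and its pseudogene equally well may not be counted. In Atp5l, a membrane subunit of ATP synthase, 68.5% of the 50-base stretches of its transcript also occurred in an annotated pseudogene transcript, and its level was 0.904 CPM per kilobase. The share was 57.5% for Atp5g2, 37.0% for Ndufb4 and 29.1% for Cox7c, the last at 4.55 CPM per kilobase. Other genes with high shares were not as low. Atp5h (46.6%), Uqcrb (43.2%), Ndufs3 (35.8%) and Ndufs5 (31.1%) stood at 46.5, 44.5, 33.2 and 12.8 CPM per kilobase. The 17 tested genes with a share of at least 10% had a median of 43.6 CPM per kilobase, against 77.7 for the other 68. Over all 85 genes Spearman's rho between share and level was -0.17, given as a description of genes that share the same libraries. Levels of the genes with high shares are uncertain, while Ndufaf6, Ndufs4, Sdhd, Ndufs8, Uqcrq, Ndufaf5, Ndufb10 and Ndufv3 had no such stretch. Several genes called below shared stretches with another annotated gene of any kind, and their levels are uncertain too. The share was 26.2% for Ndufa12, 31.1% for Ndufs5, 34.1% for Ndufb6, 38.7% for Atp5f1 and 39.7% for Ndufs3.

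**Figure D1:**
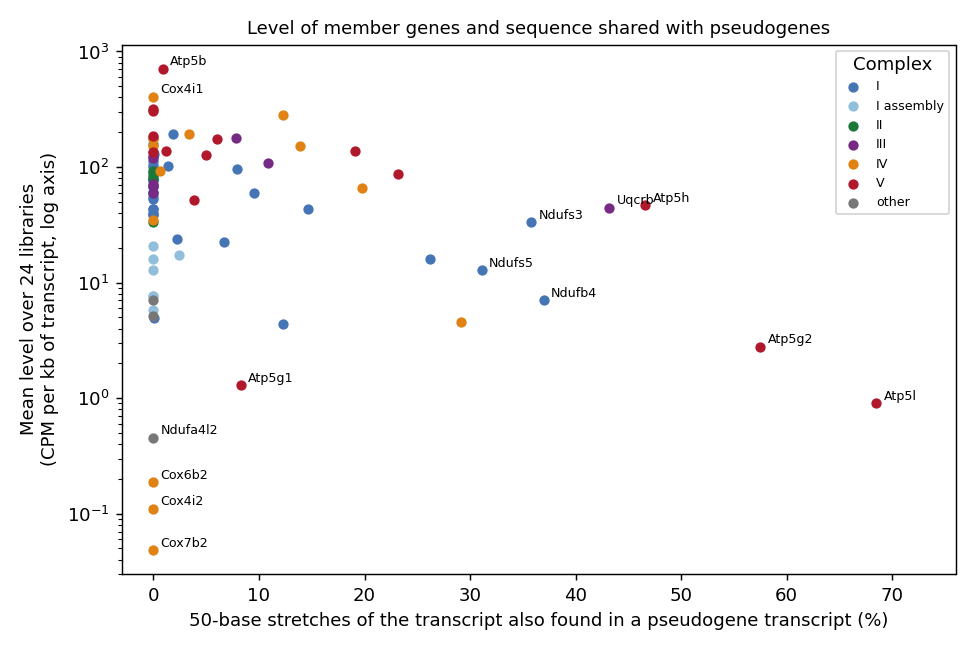
Mean level over 24 libraries (CPM per kilobase of transcript, log axis) against the share of 50-base stretches that also occur in a pseudogene transcript (percent). Each tested gene is 1 point, and Cox4i2, Cox6b2 and Cox7b2, which did not pass the filter, are also drawn. Atp5l, at 68.5% and 0.904 CPM per kilobase, lies far below most other subunits.

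Across the 24 libraries most of these genes varied little. The coefficient of variation of CPM had a median of 5.84% over the 85 genes and was below 10% in 75 of them. Neither this value nor the sums below are given for other genes. Narrow ranges are therefore not shown to be particular to the respiratory chain. The lowest value, 1.77%, was that of Atp5a1, the alpha subunit of ATP synthase, whose group means ran from 768 to 797 CPM. Those of Atp5b ran from 1310 to 1397 CPM. Core subunits of the electron-transferring complexes also kept to narrow ranges, with group means of 113 to 117 CPM for Ndufv1 (which binds NADH), 89.1 to 92.5 CPM for Sdhb (an iron-sulfur subunit of complex II), 190 to 200 CPM for Uqcrc1 (a core protein of complex III) and 296 to 319 CPM for Cox4i1. Ndufs1, Ndufa9 and Ndufb8 of complex I ranged over 103 to 110, 76.2 to 82.8 and 65.4 to 69.1 CPM. Sdha and Sdhc of complex II ranged over 256 to 282 and 103 to 108 CPM. Uqcrc2 and Uqcrfs1 of complex III ranged over 127 to 135 and 94.1 to 99.9 CPM, and Cox5a and Cox6c of complex IV over 116 to 130 and 105 to 123 CPM. The widest relative spread among genes above 1 CPM was that of Ndufaf6, whose highest group mean was 1.91 times its lowest. The group means of Sdhd ran from 87.6 to 123 CPM and those of Cox6a1 from 143 to 184 CPM.

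The sums over each complex also kept to narrow ranges. The summed CPM of all measured members lay between 8023 and 9082 in every library, a ratio of 1.1, and the sums of single complexes spanned ratios from 1.08 (complex II) to 1.19 (complex IV). The complex I assembly factor sum was 119 to 121 CPM in siCop1 with DMSO and 127 to 130 CPM once Dexa was added. These groups did not overlap, nor did those of the complex II sum, at 571 to 579 and 583 to 587 CPM. In siCop1 with KL001 both sums were also apart without and with Dexa. The assembly factor sum was 117 to 121 against 124 to 130 CPM, and the complex II sum 563 to 564 against 577 to 588 CPM. In siCTRL with KL001 the assembly factor sum was 114.5 to 122.7 against 123.9 to 125.6 CPM, while the complex II sums overlapped. In siCTRL with DMSO both sums overlapped. Some other groups were apart as well, and others overlapped. Groups of 3 libraries can stand apart through spread alone, and no separation of sums was tested. The assembly factor sum includes Ndufaf6, which had a median of 10.4 CPM with Dexa and 6.11 CPM without over all settings. The sums therefore do not show a shift of every member. The complex IV sum was 1352 ± 85.6 CPM in siCTRL with DMSO, 1454 ± 78.1 CPM once Dexa was added, and 1375 ± 33.3 CPM in siCop1 with DMSO (SD, n = 3).

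**Figure D2:**
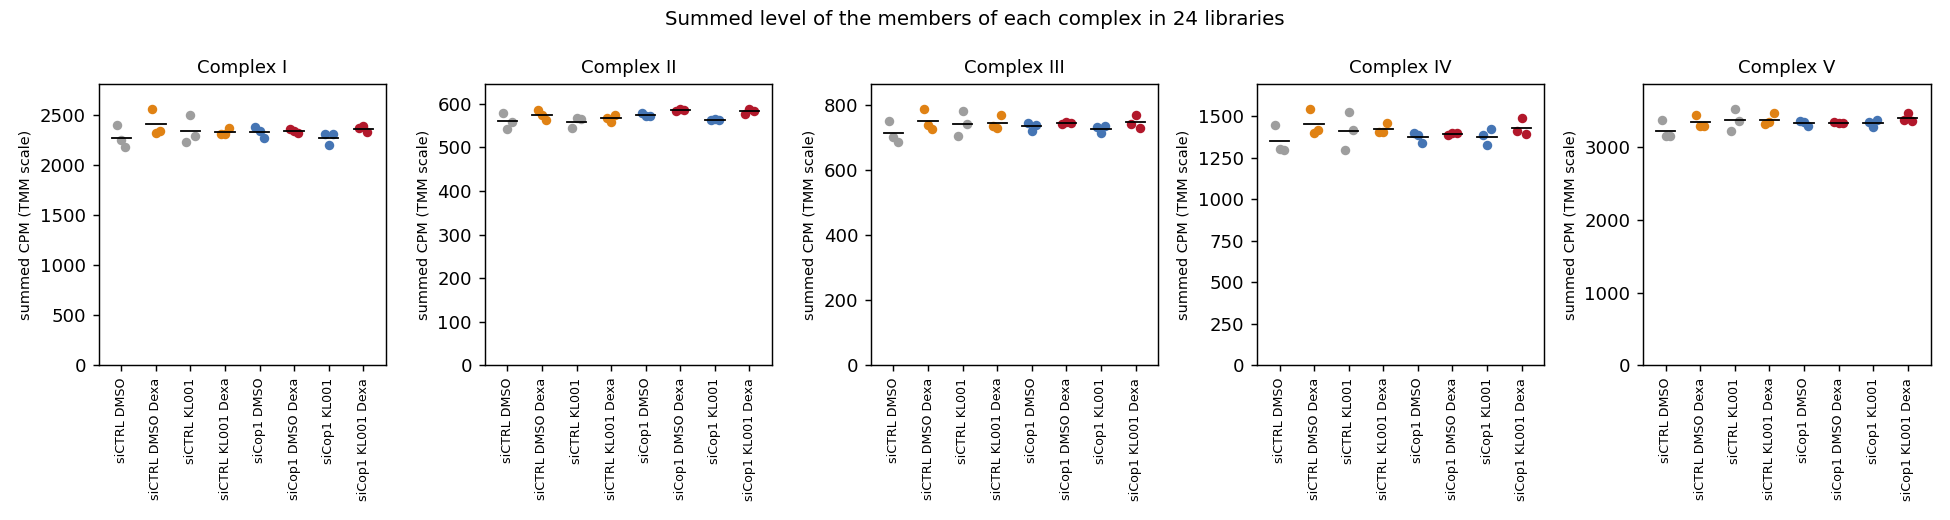
Summed level of the members of each complex (CPM) in each of the 24 libraries, by group. Points are libraries and bars are group means; within every complex the highest library is at most 1.19 times the lowest.

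Each factor was then tested over the 4 settings of the other factors, as the average of 4 differences between groups (12 libraries against 12), in a fit of all 14772 genes that passed the filter. A gene is called changed where edgeR's adjusted p was below 0.05. With Dexa, 19 of the 85 respiratory chain genes changed (22.4%), 18 of them higher and 1 lower. Of all genes tested, 47.1% changed with Dexa (22.2% higher, 24.9% lower), and of genes with a mean of at least 10 CPM 55.5% did. With siCop1, 23 changed (27.1%), 13 higher and 10 lower, where 55.7% of all genes (26.2% higher, 29.4% lower) and 64.6% of the better expressed ones changed. With KL001, 5 changed (5.88%), 3 higher and 2 lower, where 24.1% of all genes (11.8% higher, 12.4% lower) and 30.3% of the better expressed ones changed. In each comparison the share called among the respiratory chain genes was below the background. The 3 comparisons use the same 24 libraries: 48 of the 85 genes changed in none of them, 27 in 1 and 10 in 2. With each library's trends against transcript length and GC content removed, the counts were 16, 36 and 12, against backgrounds of 50.9%, 58.7% and 29.6%.

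The differences were also smaller in size. The median absolute log2 difference of the respiratory chain genes was 0.039 with Dexa, 0.034 with siCop1 and 0.024 with KL001. Over all genes tested it was 0.093, 0.116 and 0.057, and over genes of at least 10 CPM 0.070, 0.088 and 0.042. These medians include sampling error, and the members' median standard error of 0.029 in the Dexa comparison was close to that of all genes, 0.032. Only 4 members in the Dexa comparison, 3 in the siCop1 comparison and 1 in the KL001 comparison reached an absolute log2 difference of 0.2. The respiratory chain transcripts had a higher median level than all genes tested (67.6 against 26 CPM) and were shorter, with a median length of 1231 against 3222 bases. In these bulk samples, fewer cells of a type and less RNA per cell cannot be told apart.

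**Figure D3:**
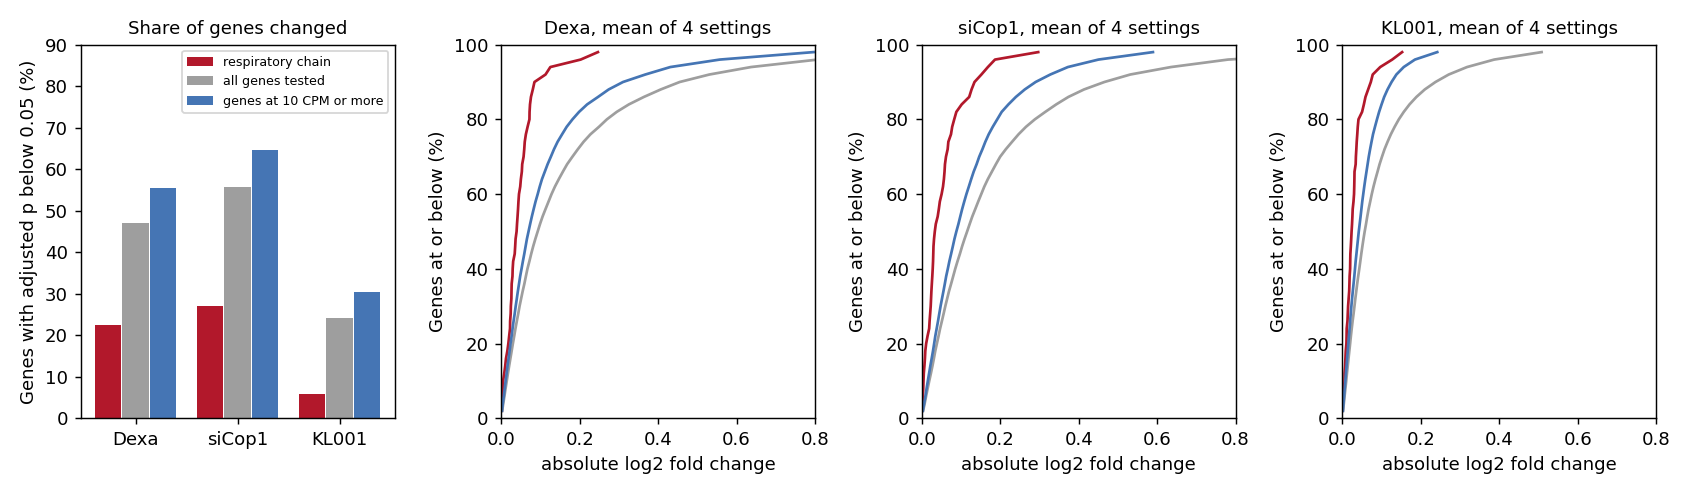
Percent of genes called changed (bars, adjusted p below 0.05) among the 85 respiratory chain genes, all genes tested and genes of at least 10 CPM, and the cumulative distribution of the absolute log2 difference, for each of the 3 averaged comparisons. The members' bars of 22.4%, 27.1% and 5.88% lie below those of all genes at 47.1%, 55.7% and 24.1%.

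Promoters of members with some of the clearest differences are shown first, to set their letters beside the values given for them. RefSeq (GRCm38.p6) gave a promoter for 74 of the members, read here as the 250 bases ahead of the RefSeq start. For Cox6a1, Ndufb4, Atp5g1 and Ndufs4 the end of this window lies inside the GENCODE gene span given below. Some of the matches shown for Ndufb4 and Cox6a1 fall in that part. A match to the NRF1 motif (GCGCA, any base, GCGC) was present in 17.6% of these and in 3.9% of 27025 promoters of the same length. NRF1 is a transcription factor known to bind many respiratory chain promoters. The ETS motif CCGGAAG, bound by GABP, was present in 16.2% against 7.1%, and the E-box CACGTG, the motif of the clock activators, in 9.5% against 6.0%. The YY1 motif AANATGGCG was present in 1.4% against 1.1%, and the glucocorticoid receptor motif (GNACA, any 3 bases, TGTNC) in 0.0% against 0.4%. The motifs were searched on both strands and overlaps between motifs were allowed. Sdhd (chr9:50603850-50604099, minus strand) and Cox6a1 (chr5:115348959-115349208, minus strand) moved in opposite directions with siCop1 (0.38 and -0.26 on the log2 scale), and both windows hold NRF1 and ETS matches. Ndufb4 (chr16:37654369-37654618, minus strand), which rose with Dexa, holds 3 NRF1 matches, and Atp5g1 (chr11:96075632-96075881, minus strand), lower with KL001, holds 1 E-box. An E-box was also present in the windows of Atp5f1, Atp5g3, Atp5l, Atp5sl, Ndufa7 and Ndufv1, none of them called with KL001. The windows of Ndufs8, Atp5b and Ndufv3, which were called with KL001, held no E-box. Capitals mark the matches, and an ETS match on the opposite strand reads CTTCCGG.
Sdhd: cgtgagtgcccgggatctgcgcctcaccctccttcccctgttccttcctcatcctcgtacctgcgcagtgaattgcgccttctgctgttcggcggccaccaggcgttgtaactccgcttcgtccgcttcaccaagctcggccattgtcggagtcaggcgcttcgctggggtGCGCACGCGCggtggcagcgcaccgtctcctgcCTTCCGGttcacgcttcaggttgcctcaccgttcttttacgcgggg
Cox6a1: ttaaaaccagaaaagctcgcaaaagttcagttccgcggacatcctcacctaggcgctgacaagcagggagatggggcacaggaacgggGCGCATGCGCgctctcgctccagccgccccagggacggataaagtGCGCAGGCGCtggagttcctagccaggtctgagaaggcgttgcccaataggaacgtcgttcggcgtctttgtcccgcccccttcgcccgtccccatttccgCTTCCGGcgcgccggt
Ndufb4: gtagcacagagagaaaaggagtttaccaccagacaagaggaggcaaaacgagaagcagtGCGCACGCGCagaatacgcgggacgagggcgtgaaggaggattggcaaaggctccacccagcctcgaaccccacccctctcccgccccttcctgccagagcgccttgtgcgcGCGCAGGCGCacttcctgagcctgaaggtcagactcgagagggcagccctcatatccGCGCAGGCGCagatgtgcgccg
Atp5g1: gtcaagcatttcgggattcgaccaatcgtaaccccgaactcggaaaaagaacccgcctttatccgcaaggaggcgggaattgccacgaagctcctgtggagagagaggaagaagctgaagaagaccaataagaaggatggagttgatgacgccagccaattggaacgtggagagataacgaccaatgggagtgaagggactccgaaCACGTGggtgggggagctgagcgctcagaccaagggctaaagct

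The window of Ndufs4, which rose with Dexa, and that of Ndufs8, which fell with siCop1, held no match to any of these motifs. A match is a run of letters and was not tested for binding.

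Dexa was accompanied by a higher level of a complex I assembly factor and by smaller differences in every complex. By complex, 8 of 36 complex I subunits rose and 1 fell, and 3 of 7 complex I assembly factors rose. Of the rest, 2 of 4 complex II genes, 1 of 8 in complex III, 2 of 12 in complex IV, 1 of 15 in complex V and Atp5sl rose. The share called was 25% in complex I, 42.9% among the assembly factors and 50% in complex II, against 47.1% of all genes. In complexes III to V it was at most 16.7%. The median log2 difference was 0.039 in complexes I and V and 0.056 in complex IV. The largest rise was that of Ndufaf6, an assembly factor needed at an early step of building complex I, which increased by 70.7%.

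Ndufaf6 (chr4:11051045-11076205, minus strand, GRCm38) had 7.0, 5.26 and 5.88 CPM in siCTRL with DMSO and 11.1, 9.82 and 10.5 CPM once Dexa was added. With KL001 the corresponding values were 5.52, 5.51 and 6.34 CPM without Dexa and 10.4, 8.91 and 10.1 CPM with it. In siCop1 cells with DMSO they were 6.37, 6.72 and 5.76 CPM and 10.9, 9.49 and 12.7 CPM, and in siCop1 cells with KL001 5.03, 7.03 and 6.42 CPM and 9.02, 11 and 10.6 CPM. All 12 libraries with Dexa stood above all 12 without it, from 8.91 to 12.7 CPM against 5.03 to 7.03 CPM. The averaged log2 difference was 0.77 (SE 0.060, edgeR adjusted p = 8.27e-12). It was 0.79 and 0.76 in siCTRL cells with DMSO and with KL001, and 0.81 and 0.73 in siCop1 cells, each called on its own.

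Ndufs4, a small accessory subunit of complex I whose loss causes Leigh-like disease in mice, rose less. This gene at chr13:114287795-114388258 (minus strand) had 61.6, 54.3 and 56.2 CPM in siCTRL with DMSO and 81.1, 69.5 and 74.8 CPM with Dexa added. Over all settings it ran from 64.6 to 81.1 CPM with a median of 68.9 with Dexa, and from 54.3 to 64.8 CPM with a median of 59.7 without. The ranges met only at their edges, and the averaged log2 difference was 0.24 (SE 0.030, edgeR adjusted p = 1.40e-07). It was 0.39 in siCTRL with DMSO, 0.18 in siCTRL with KL001 and 0.23 in siCop1 with KL001, and in siCop1 with DMSO it was 0.15 with an edgeR adjusted p of 0.063. No difference between these settings passed the test for the interactions.

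Ndufb4 and Ndufb6, accessory subunits of the membrane arm of complex I, followed. Ndufb4 (chr16:37647170-37654453, minus strand) ran from 6.46 to 8.02 CPM with Dexa, median 7.25, and from 5.72 to 6.80 CPM without, median 6.33. The log2 difference was 0.22 (SE 0.043, edgeR adjusted p = 1.12e-04), with overlapping ranges. It was called in 2 of the 4 settings, and the gene's shared sequence makes its level uncertain. Ndufb6 ran from 42.1 to 51.3 CPM with Dexa and from 35.8 to 47.6 CPM without, a log2 difference of 0.13. Ndufaf5, an assembly factor that modifies Ndufs7, ran from 14.2 to 17.7 CPM with Dexa and from 12.9 to 15.3 CPM without, a log2 difference of 0.18 (SE 0.033, edgeR adjusted p = 5.05e-05). Its start lies 85 bases from that of Esf1, which is transcribed the other way and rose with Dexa by 0.28 on the log2 scale (edgeR adjusted p = 1.32e-11).

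The other rises with Dexa were small. Ndufa12 rose by 0.11 on the log2 scale, and Cox6a1 of complex IV, Ndufs3 of the complex I core and Sdhd, a membrane anchor of complex II, by 0.08 each. Ndufaf4, Ndufb11, Cox6b1, Ndufa10, Ndufs1, Sdha, Uqcrc2, Atp5c1 and Atp5sl also rose, by 0.04 to 0.09. Atp5l had the second largest difference, 0.26, but with an SE of 0.14 and an edgeR adjusted p of 0.195 it did not pass, at 0.335 to 0.733 CPM per library. Atp5g1 was at 0.13 with an edgeR adjusted p of 0.0665.

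**Figure D4:**
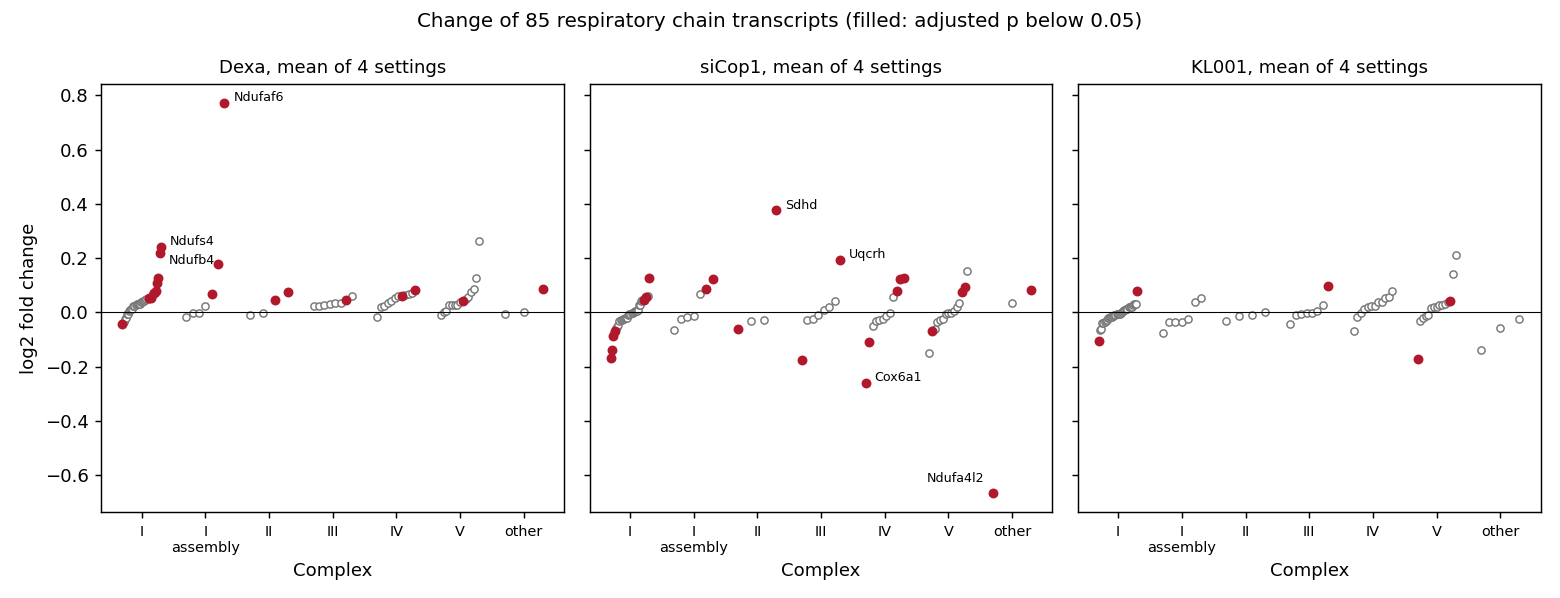
Log2 difference of each member for Dexa, siCop1 and KL001, averaged over 4 settings, with members ordered by complex. Filled points have an adjusted p below 0.05; Ndufaf6 at 0.77 with Dexa, and Ndufa4l2 at -0.67 and Sdhd at 0.38 with siCop1, stand apart, while most members lie near 0.

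The small differences leaned upward with Dexa: 70 of 85 members were above 0, with a median of 0.037, where all genes had a median of -0.002. Among markers of other cell types, 1 of 6 for squamous epithelium (Trp63) rose with Dexa by 0.71 and 1 of 3 tested for macrophages (Csf1r) fell by 1.04, both named after their values were seen. Their part in the result was not tested. The genes share libraries, and their levels moved together between libraries of the same group. Averaged over the 85 members, the log2 level relative to each gene's mean over all libraries ran from -0.10 in replicate 3 of siCTRL with DMSO to 0.11 in replicate 1 of siCTRL with DMSO and Dexa. Its SD between libraries of a group was 0.052. The members' mean trend against transcript length and GC content was -0.037 in the first of these libraries and 0.052 in the second. How far such trends account for the shared movement was not tested. The number of members called was 12 (11 higher, 1 lower) without replicate 1 of siCTRL with KL001 and no Dexa, and 33 (32 higher, 1 lower) without replicate 2 of that group. Without the 6 libraries with Myh6, and so averaged over 3 settings, it was 17, all higher, and Ndufs1, Uqcrc2, Cox6b1 and Atp5sl were among those no longer called.

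By setting, Dexa was followed by 9 higher members and 0 lower in siCTRL with DMSO, where 26.8% of all genes changed. In siCTRL with KL001 there were 4 higher and 1 lower against a background of 26.8%, in siCop1 with DMSO 3 higher against 23.7%, and in siCop1 with KL001 3 higher against 24.5%. The members' median differences were 0.077, 0.004, 0.018 and 0.056 on the log2 scale. The first count was 24 without replicate 1 and 3 without replicate 3 of siCTRL with DMSO, and 4 and 14 without replicates 1 and 2 of the Dexa-treated group. In siCTRL with KL001 it was 2 without replicate 3 of the Dexa-treated group, and in siCop1 with DMSO 1 without replicate 2 of the Dexa-treated group.

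**Figure D5:**
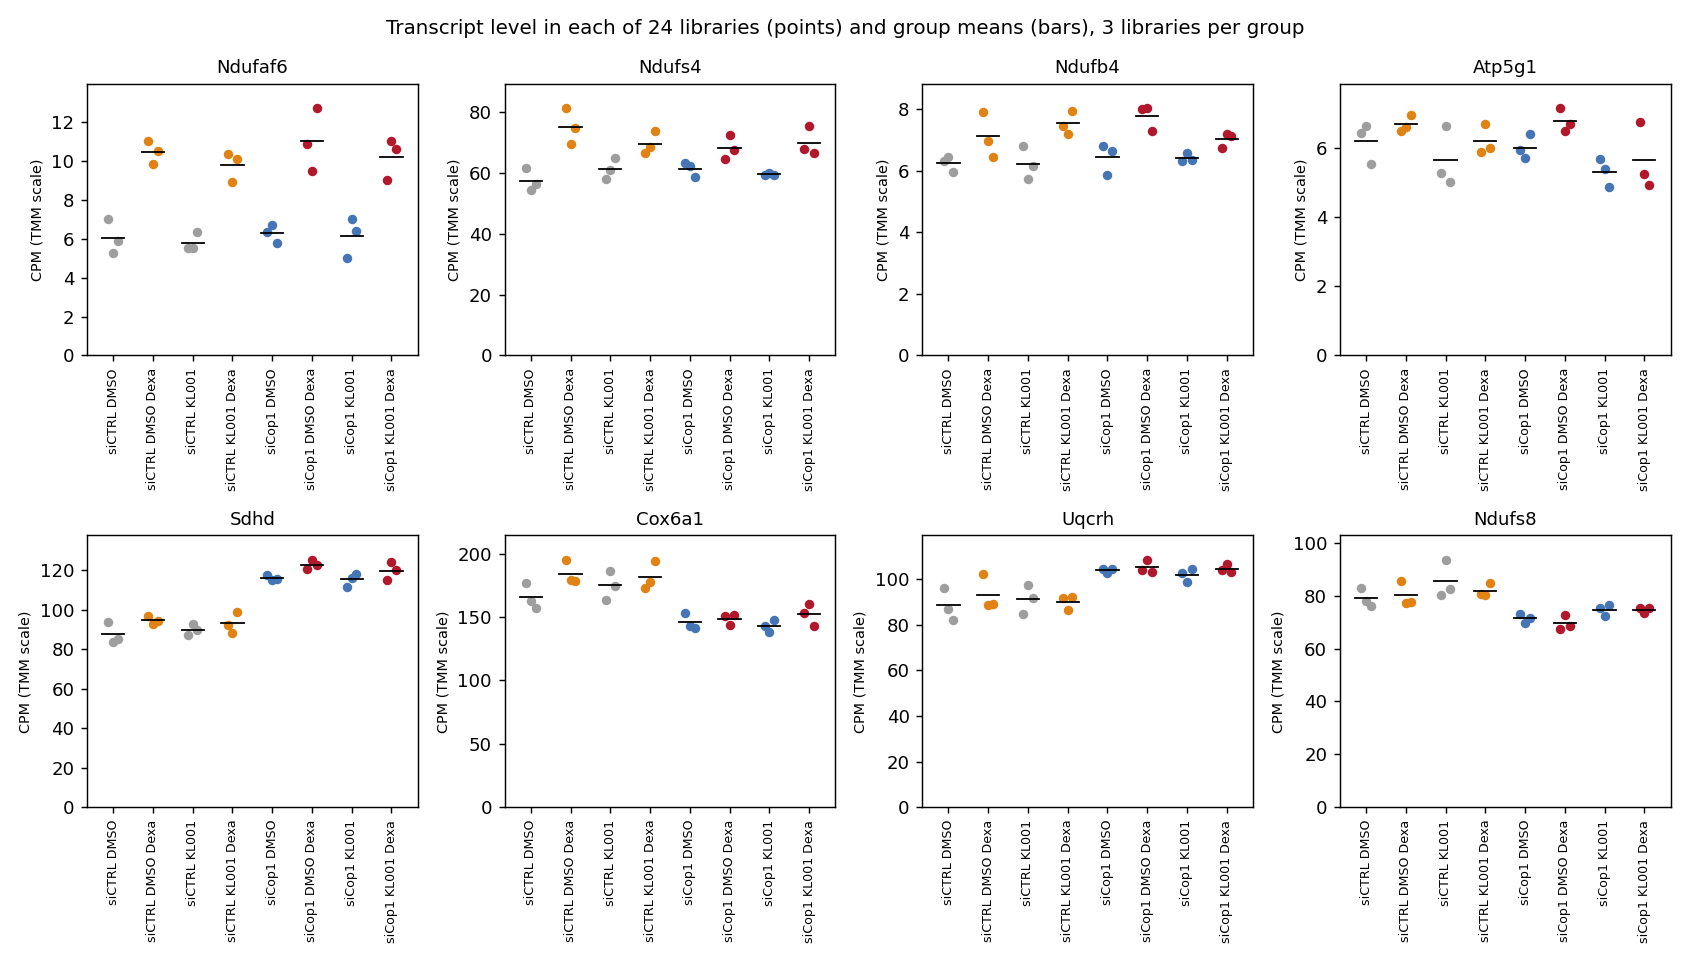
Level (CPM) of 8 members in each of the 24 libraries, with group means as bars; colours separate siCTRL and siCop1, without and with Dexa. Ndufaf6 is above 8.9 CPM in every library with Dexa and at most 7.03 CPM in every other, and Sdhd is at least 112 CPM in every siCop1 library and at most 98.7 CPM in every siCTRL library.

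siCop1 was accompanied by changes in both directions, scattered over the complexes. Of 36 complex I subunits 3 rose and 4 fell, and 2 of 7 assembly factors rose. Complex II and complex III each had 1 gene higher and 1 lower, complex IV 3 and 2, and complex V 2 and 1. Atp5sl rose and Ndufa4l2 fell. The share called was 19.4% in complex I and at most 50% in any complex, against 55.7% of all genes. The median difference over the 85 members was -0.007.

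Sdhd (chr9:50596357-50603812, minus strand), which anchors complex II in the inner membrane and helps to form its ubiquinone site, had the clearest difference. Without Dexa and with DMSO it had 93.6, 83.9 and 85.4 CPM in siCTRL and 118, 115 and 115 CPM in siCop1. With KL001 the values were 87.4, 92.8 and 89.6 CPM against 112, 116 and 118 CPM. With Dexa they were 97.0, 93.1 and 94.6 CPM against 121, 125 and 123 CPM in DMSO, and 92.3, 88.5 and 98.7 CPM against 115, 124 and 120 CPM in KL001. The siCop1 and siCTRL libraries did not overlap, and the averaged log2 difference was 0.38 (SE 0.021, edgeR adjusted p = 1.65e-15), an increase of 29.7%. Its partners in complex II did not follow: Sdhb and Sdhc were not called, and Sdha, the flavoprotein subunit, fell by 0.06 (edgeR adjusted p = 9.84e-05). Timm8b, whose start lies 98 bases from that of Sdhd on the opposite strand and shares no exon with it, was at -0.01 (SE 0.029, edgeR adjusted p = 0.774).

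Uqcrh, the hinge protein of complex III, and Uqcrq, another small subunit of the same complex, moved in opposite directions. Uqcrh (chr4:116066965-116075071, minus strand) ran from 98.5 to 108 CPM with siCop1 and from 82.0 to 102 CPM with siCTRL, a log2 difference of 0.19 (SE 0.026, edgeR adjusted p = 5.03e-07). Uqcrq (chr11:53427922-53430831, minus strand) ran from 78.0 to 93.1 CPM with siCop1 and from 82.4 to 109 CPM with siCTRL, a decrease of 11.4% (edgeR adjusted p = 7.33e-06). The ranges of both genes overlapped. Uqcrh was called in each of the 4 settings, at 0.16 to 0.23, while Uqcrq was at -0.06 in DMSO without Dexa (edgeR adjusted p = 0.491) and at -0.15 to -0.25 in the other settings.

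In complex IV, 8 of the 12 tested members lay below 0 with siCop1 (median -0.02), and 3 were called higher and 2 lower. The clearest decrease was in Cox6a1, whose promoter window, like that of Sdhd, holds NRF1 and ETS matches. Cox6a1 (chr5:115345642-115348981, minus strand), the non-muscle form of subunit VIa, ran from 138 to 160 CPM with siCop1, median 146, and from 157 to 195 CPM with siCTRL, median 177. The log2 difference was -0.26 (SE 0.027, edgeR adjusted p = 1.26e-08) and each setting was called, at -0.19 to -0.31. Cox7a2l fell by 0.11. Cox8a rose by 0.13, Cox6b1 by 0.12 and Cox7b by 0.08. Cox8a ran from 93.5 to 108 CPM with siCop1 and from 81.3 to 104 CPM with siCTRL, so that its ranges overlapped widely. It was called in 0 of the 4 settings alone.

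In complex I the clearest decrease was in Ndufs8, an iron-sulfur subunit of the core, at chr19:3908863-3912774 (minus strand). It ran from 67.4 to 76.4 CPM with siCop1 and from 76.1 to 93.5 CPM with siCTRL, ranges that met at their edges. The decrease was 11.1% (edgeR adjusted p = 6.92e-07) and was called in each setting. Ndufs5, Ndufa13 and Ndufa10 fell by 0.14, 0.09 and 0.07, and Ndufb10 and Ndufa9 rose by 0.13 and 0.06. Ndufaf2 and Ndufaf4, which help to assemble complex I, rose by 0.12 and 0.09. In complex V, Atp5k and Atp5g3 rose by 0.09 and 0.08, and Atp5f1, a subunit of the peripheral stalk, fell by 0.07.

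Ndufa4l2 had the largest decrease with siCop1, from a median of 0.517 CPM to one of 0.336 CPM, a log2 difference of -0.67 (SE 0.18, edgeR adjusted p = 0.00266). It rested on 4 to 18 counts per library. The summed heart muscle markers, of which 13 of 14 tested fell with siCop1 and Myh6 was at 0 in 15 of 24 libraries, moved in the same direction. Without the 6 libraries with Myh6 the difference was -0.41 with an edgeR adjusted p of 0.172. Sdhd, Cox6a1, Uqcrh, Uqcrq and Ndufs8 were still called without those libraries, and the count was 21 (10 higher, 11 lower). Ndufs5, Ndufaf4, Ndufa9 and Atp5sl were no longer called. Airway epithelium and macrophage markers were low throughout, and 3 of 5 and 2 of 3 of those tested rose with siCop1. Squamous markers rose in 2 of 6, with a summed level of at most 74.0 CPM in any library. The part of these markers, heart muscle included, in the other siCop1 results was not tested.

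Across the settings, siCop1 was followed by 7 higher and 2 lower members in DMSO without Dexa, where 29.4% of all genes changed. There were 2 higher and 5 lower in DMSO with Dexa (31.1% of all genes), 2 and 6 in KL001 without Dexa (32.7%) and 6 and 4 in KL001 with Dexa (30.1%). Single libraries moved these counts too. Without replicate 3 of siCTRL with DMSO, or replicate 1 or 2 of siCop1 with DMSO, the first was 5, 5 and 4. Without replicates 1 and 3 of siCTRL with KL001 the third was 14 and 5, and the fourth was 6 without replicate 3 of its siCTRL group or without replicates 1 or 2 of its siCop1 group.

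KL001 was accompanied by few changes in the respiratory chain. Atp5g1 (chr11:96068852-96075670, minus strand), which encodes subunit c of ATP synthase, ran from 4.89 to 6.77 CPM with KL001, median 5.55, and from 5.56 to 7.16 CPM without, median 6.51. The ranges overlapped and the log2 difference was -0.17 (SE 0.056, edgeR adjusted p = 0.0221; DESeq2 adjusted p = 0.0504). It was negative in all 4 settings, from -0.11 to -0.26, and was called in none of them alone. Atp5g3, the most abundant of the 3 genes per length, was not called.

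Ndufv3, an accessory subunit of the NADH-binding module, ran from 61.6 to 71.7 CPM with KL001 and from 65.7 to 76.9 CPM without, a log2 difference of -0.10 (SE 0.023, edgeR adjusted p = 9.23e-04). Uqcrq and Ndufs8 rose by 0.10 and 0.08, and Atp5b by 0.04. Both Uqcrq and Ndufs8 were among the genes that fell with siCop1. Without the 6 libraries with Myh6 the count was 4, all lower: Uqcrq was then at 0.06 (edgeR adjusted p = 0.162), Ndufs8 at 0.06 (0.0727) and Atp5b at 0.03 (0.184). In single settings KL001 was followed by 1 higher member in siCTRL without Dexa, where 6.73% of all genes changed, and by 1 lower in siCTRL with Dexa, where 10.6% did. In siCop1 cells edgeR called 0 without Dexa and 0 with it, against 4.09% and 5.46% of all genes, and 3 members in each had an unadjusted p below 0.05. Without single libraries of its groups the count in siCTRL without Dexa lay between 0 and 3, at 3 without replicate 1 of either group and at 0 without replicate 2 of either group or replicate 3 of siCTRL with DMSO. In siCTRL with Dexa it was 0 and 2 without replicates 1 and 2 of the DMSO group. In siCop1 with Dexa it was 1 without replicate 1 of the KL001-treated group.

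Whether the factors modified each other was tested with 3 interaction terms. edgeR called 0 of 85 members in the interaction of siCop1 with Dexa, of KL001 with Dexa and of siCop1 with KL001, where 1.82%, 0.183% and 0.447% of all genes were called. At an unadjusted p below 0.05 there were 3 members in the first (Cox7c, Ndufa1 and Ndufaf1) and 0 in the others.

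Genes of the same pathway outside the symbol rule were read from lists. Of 37 other assembly factors, 5 rose and 3 fell with Dexa, 4 rose and 8 fell with siCop1, and 1 rose and 4 fell with KL001, with medians between -0.02 and 0.01. Of all genes, 47.1%, 55.7% and 24.1% changed in these comparisons, so a smaller share of the list was called in each. Cox11, which inserts copper into complex IV, rose with Dexa by 0.34 (edgeR adjusted p = 1.25e-08), and Foxred1, a complex I assembly factor, by 0.19. Cox18, which inserts a complex IV subunit into the membrane, rose with Dexa by 0.12 and fell with siCop1 by 0.21 (edgeR adjusted p = 5.06e-09). Among 15 other subunits and electron carriers, 3 rose and 1 fell with Dexa, 3 rose and 5 fell with siCop1 and 1 rose with KL001, again no larger a share than of all genes. Etfdh, which passes electrons from fatty acid oxidation to ubiquinone, rose with siCop1 by 0.17, and Etfb, part of its electron donor, fell by 0.22. Slc25a4, the ADP/ATP carrier of the inner membrane, fell by 0.20.

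Regulators of mitochondrial biogenesis formed the third list. Of 12 listed, 1 rose and 5 fell with Dexa, 4 fell with siCop1 and 1 fell with KL001, where 47.1%, 55.7% and 24.1% of all genes changed. The share with Dexa was near that of all genes, and the shares with siCop1 and KL001 were below it. With Dexa, Gabpb1, a subunit of GABP, fell by 0.32 (edgeR adjusted p = 1.12e-13), Nrf1 by 0.19 (edgeR adjusted p = 1.15e-08) and Gabpa by 0.11, while the coactivator Ppargc1a rose by 0.25 (edgeR adjusted p = 0.00334) at a mean of 5.19 CPM. With siCop1, the coactivator gene Pprc1 fell by 0.23 (edgeR adjusted p = 4.71e-11) and the nuclear receptor Esrra by 0.16. Tfam, which packages and transcribes mitochondrial DNA, fell by 0.08. The median differences of the list were -0.04 with Dexa, -0.07 with siCop1 and 0.04 with KL001.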

How the data were processed

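RNA from 24 libraries of mouse embryonic fibroblasts was measured as raw read counts per gene symbol, the table the authors deposited. Per the submitters' processing notes, bcl2fastq 1.8.4, STAR 2.4.5a, featureCounts (Subread 1.4.6-p3), Picard 1.126 and DESeq2 were used with builds GRCm38 and mm10. How strand and reads with several matches were handled is not given in the sources used here. Genes with overlapping or copied sequence are therefore uncertain. The authors' normalized table was not used, and 0 columns were left unmatched.

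Genes were kept with filterByExpr (minimum count 10, minimum total 15). TMM factors were applied, and edgeR 4.0.16 in R 4.3.3 fitted a robust quasi-likelihood model of all 24 libraries with 1 mean per group. p-values are two-sided and Benjamini-Hochberg adjusted over 14772 genes. The common biological coefficient of variation was 3.71%. Counts were not corrected for PCR copies. The fit was also run on simulated counts with the same spread for every gene and changes with Dexa only. That setting is simpler than these data, and its outcome is not reported here.

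Named genes are fixed reference subunits and paralogs, plus, per averaged comparison, up to 10 higher and 10 lower called members of at least 1 CPM with the largest differences, and up to 2 of each per setting. Members named outside that rule (Sdha, Uqcrc2, Atp5c1, Atp5l and others with small differences) were named after their values had been seen. Not every called member is reported here by name. The members and lists were chosen with earlier results of these data known. Sequence sharing used GENCODE vM21 transcripts, and promoters were read from RefSeq. Alternatives were RLE scaling, no filter, DESeq2 1.42.0, a replicate block, removal of length and GC trends (spline with 4 degrees of freedom), fits restricted to the groups compared, omission of each library, omission of pseudogene rows and, chosen after seeing the data, leaving out the 6 libraries with Myh6.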

Additional observations from a re-analysis of the deposited data

How the results depend on the processing

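Of the members named in an averaged comparison and called there, 7 of 15 with Dexa (Ndufaf6, Ndufs4, Ndufb4, Ndufaf5, Ndufb6, Cox6a1 and Sdhd), 14 of 22 with siCop1 (Sdhd, Cox6a1, Uqcrh, Uqcrq and Ndufs8 among them) and 1 of 5 with KL001 (Ndufv3) were called in the same direction in every alternative run. Atp5g1 with KL001 had an adjusted p of 0.0504 with DESeq2. The counts of members called in the averaged comparisons lay within 1.5 times those reported under RLE, no filter, DESeq2 and the omission of the 6 libraries with Myh6. With length and GC trends removed they were 36 with siCop1 and 12 with KL001, and Ndufv1 and Cox4i1, not called with siCop1 otherwise, reversed to 0.045 and 0.046 (edgeR adjusted p = 0.00641 and 8.49e-04). The cause was not tested.

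Leaving out single libraries gave 12 to 33 members with Dexa, 20 to 26 with siCop1 and 4 to 6 with KL001. By setting (siCTRL then siCop1, DMSO then KL001) the ranges with Dexa were 3 to 24, 2 to 5, 1 to 2 and 2 to 4. With siCop1 (DMSO then KL001, without then with Dexa) they were 4 to 11, 6 to 9, 5 to 14 and 6 to 7. With KL001 (siCTRL then siCop1, without then with Dexa) they were 0 to 3, 0 to 2, 0 to 0 and 0 to 1, and for the interactions 0 to 0.

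Other counts by setting moved as follows, and the causes were not tested. No filter gave 16 and 3 with Dexa in siCTRL (DMSO, KL001), 12 with siCop1 in DMSO with Dexa, 2 with KL001 in siCTRL without Dexa and 1 in siCop1 with Dexa. DESeq2 gave 1 with Dexa in siCop1 with DMSO and 2 with KL001 in siCTRL with Dexa. Removing length and GC trends gave 10 with Dexa in siCTRL with KL001 and 5 in siCop1 with DMSO, 19, 15 and 19 with siCop1 (DMSO without and with Dexa, KL001 without), and 4, 3, 2 and 2 with KL001. Fitting only the groups compared gave 9 and 8 with Dexa in siCop1 (DMSO, KL001), 17 with siCop1 in KL001 with Dexa, and 0, 1 and 1 with KL001 (siCTRL without Dexa, siCop1 without and with). Without the 6 libraries, 5 and 6 were called with Dexa in siCop1, 11 with siCop1 in DMSO with Dexa, and 3 and 1 with KL001 (siCTRL with Dexa, siCop1 without).

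The replicate numbers were not taken to pair the libraries: the correlation of same-numbered libraries of different groups had a median of 0.0119 and exceeded 0.1 in 19 of 84 pairs, against 27 of 168 pairs with different numbers. Still, 13 of 24 libraries correlated best with their own number, and in 3 siCTRL groups replicate 2 alone had Myh6. With the replicate block 17, 23 and 5 members were called with Dexa, siCop1 and KL001. Depth limits the members below 1 CPM, Atp5l and Ndufa4l2, which rest on few counts per library.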

Other observations

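Enzymes that feed the respiratory chain, and the pathway that can take its place in making ATP, were measured in the same fits. Of 17 genes of the citric acid cycle, 7 rose and 1 fell with Dexa, 4 rose and 7 fell with siCop1, and 2 rose with KL001. Of all genes 47.1%, 55.7% and 24.1% changed, and of those of at least 10 CPM 55.5%, 64.6% and 30.3%, so the list's share was near the background with Dexa and siCop1 and below it with KL001. Idh2, the NADP-dependent isocitrate dehydrogenase of mitochondria, rose with Dexa by 0.61 on the log2 scale (edgeR adjusted p = 5.04e-24, mean 352 CPM) and fell with siCop1 by 0.16. Pdha1, a subunit of pyruvate dehydrogenase, fell with siCop1 by 0.19, and Cs, citrate synthase, fell with siCop1 by 0.13 and rose with KL001 by 0.07.

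Of 15 glycolysis genes, 7 rose and 1 fell with Dexa, 5 rose and 5 fell with siCop1, and 9 rose and 1 fell with KL001, the last with a median log2 difference of 0.08. Of all genes 47.1%, 55.7% and 24.1% changed, and of those of at least 10 CPM 55.5%, 64.6% and 30.3%, so the list's share was near the background with Dexa and siCop1 and above it with KL001, which was not tested. Hk2, a hexokinase, rose with KL001 by 0.24 (edgeR adjusted p = 7.87e-08) and with siCop1 by 0.35, and Pgam1 rose with KL001 by 0.21. Slc2a1, the glucose transporter of most cells, rose with Dexa by 0.37. Pfkp, the platelet form of phosphofructokinase, fell with siCop1 by 0.93 (edgeR adjusted p = 2.29e-19).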
